A study of Homo sapiens with 8 samples.

Results

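Open chromatin of ZBTB48 knockout (KO) clones was compared before and after interferon gamma (IFNγ), the cytokine with which T and NK cells switch on antigen presentation and antiviral genes in other cells. The comparison holds 4 of the 8 FAIRE-seq libraries of the study, namely the KO clones KO_C5 and KO_D2, each untreated and treated with IFNγ at 250 U/ml. The other 4 libraries came from the wild type (WT) clones WT_4 and WT_5 under the same conditions. All are clones of U2OS, a human osteosarcoma cell line, so each library stands for 1 clone in 1 condition and the untreated KO libraries already lack ZBTB48, a zinc finger protein of telomeres and promoters. The labels give 24 h of IFNγ, while the study's text also names longer exposures, so the duration is uncertain.

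FAIRE-seq sequences the DNA that formaldehyde leaves free of nucleosomes, and a peak marks a stretch of open chromatin. Peaks of the 8 libraries that shared at least 1 bp on chromosomes 1 to 22 and X were joined into regions. Of 52105 regions, 33834 had a peak in a KO library, and these were the regions tested. A region was called gained when both KO clones had a peak after IFNγ and neither had one untreated, and lost in the reverse case. By this rule 3516 regions were gained, 10.4% of those tested, and 83 were lost, 0.245% of those tested.

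IFNγ binds a receptor of the chains IFNGR1 and IFNGR2, which signals through the kinases JAK1 and JAK2. The signal reaches genes at gamma-activated sites (GAS) and raises IRF1 and other IRF factors, which bind interferon-stimulated response elements (ISRE). The target genes load and present antigen (MHC class I, the immunoproteasome, and MHC class II through its transactivator CIITA), guide leukocytes (chemokines) or block viruses and intracellular microbes (GBP, APOL, OAS and MX proteins). Lists of 128 such genes in 8 groups were followed here.

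The sequences shown next are ISRE-like runs under gained promoter peaks of listed genes and, for RNF213, under a gained intronic region. Whether these runs act in the response was not tested. They are read from the GRCh38 (hg38) genome, 5′ to 3′ on the strand of the gene named, with the letters GAAANNGAA or TTCNNNGAA, or the reverse complement of the former, in capitals. GAAANNGAA is the ISRE core and TTCNNNGAA the GAS, and overlapping matches make 1 longer run of capitals. The first 2 are shown with more flank because they lie outside exons, and the others are limited to the site.
ISG15: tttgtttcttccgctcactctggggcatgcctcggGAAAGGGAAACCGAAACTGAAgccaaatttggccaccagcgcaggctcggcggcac
CIITA: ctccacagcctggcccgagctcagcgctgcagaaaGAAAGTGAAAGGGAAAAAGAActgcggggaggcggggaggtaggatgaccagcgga
BATF2: ggctttaggaGAAACTGAAacttggccct
APOL3: ctcaactGAAAGTGAAACTGAAgctgggc
MX1: cagaaatGAAACCGAAACTGAAttgtccg
OAS2: tctagacTTCAGTTTCAGTTTCctggctc
TRIM21: ctgagcgGAAACTGAAAGTGAAataggga
BST2: tcctTTCTGGGAAACTGAAACTGAAaacc
RNF213: tTTCACTTTCGCAGAAAATGAAACTGAAg
The ISG15 window is chr1:1013349-1013439 on the + strand, its run lies 103 bp from an annotated transcription start site (TSS), and the peak summit in a KO library lay 15 bp away. The CIITA window is chr16:10878867-10878957 (+), 57 bp from a TSS and 24 bp from the summit. The sites of BATF2 (chr11:64997027-64997055, - strand), APOL3 (chr22:36156940-36156968, -), MX1 (chr21:41420562-41420590, +), OAS2 (chr12:112978509-112978537, +) and TRIM21 (chr11:4393664-4393692, -) lie within 34 bp of a TSS. In BST2 (chr19:17405742-17405770, -) a GAS overlaps a pair of ISRE cores, and in RNF213 (chr17:80263560-80263588, +) 4 matches of both motifs overlap at 2525 bp from the TSS, in an intron. Of the 16 listed genes with a gained promoter region, 12 had an ISRE core in the KO_IFNγ peaks, 1 (SP110) a GAS alone, and 3 (HLA-B, CX3CL1 and SP100) neither.

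The lists of both KO clones grew with IFNγ, and this bears on every count of gained regions. KO_C5 went from 19255 to 27457 peaks (ratio 1.43) and KO_D2 from 16730 to 24727 (ratio 1.48). Both differences, 8202 and 7997 peaks, have the same sign, but 2 clones allow no two-sided exact sign-flip permutation p below 0.5. The lowest local background in a list, which follows sequencing depth, rose 1.26 times in KO_C5 and 1.72 times in KO_D2, so deeper libraries and more open sites cannot be told apart from the counts alone. In these bulk libraries more cells with a site open and wider opening per cell cannot be told apart either. Each list was therefore also reduced to its top 16730 peaks by −log10 p, as many as untreated KO_D2 had. At equal lengths 957 of 23285 regions were gained (4.11%) and 702 were lost (3.01%), and 925 of the 3516 gained regions (26.3%) were gained in both settings.

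The interferon genes were then read against these backgrounds. A promoter was taken as 500 bp either side of any annotated TSS of a gene. Over all genes with a KO promoter peak, 851 of 18634 promoters were gained (4.57%) and 34 lost (0.182%), and among protein-coding genes 454 of 13349 were gained (3.4%). Of the 128 listed genes, 81 had a KO promoter peak, 17 of these were gained (21.0%) and 0 were lost. The lists were chosen with earlier results of these data known, so the distance of this share from the background is a description. The gained promoters were those of BATF2, HLA-B, CIITA, APOL2, APOL3, CX3CL1, ISG15, BST2, MX1, OAS2, IFI16, IFIH1, DDX60, SP100, SP110, TRIM21 and LGALS3BP. A further 41 listed promoters had a peak in all 4 KO libraries, 23 in some, and 47 in none.

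The number of listed promoters with a peak rose in every clone, in the KO clones from 46 to 73 (KO_C5) and from 50 to 79 (KO_D2). Promoters of all genes rose with all peaks too. In KO_C5 alone 2735 were gained and 418 lost, and in KO_D2 alone 1844 were gained and 356 lost. At equal list lengths the listed number rose from 44 to 58 and from 50 to 68. This is a mean difference of 16 promoters (exact sign-flip permutation p = 0.5, the smallest that 2 clones allow). Untreated and treated WT_4 had 53 and 60 listed promoters with a peak and WT_5 had 67 and 85. WT_4 gained listed promoters while its whole list dropped by 2802 peaks.

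**Figure D1:**
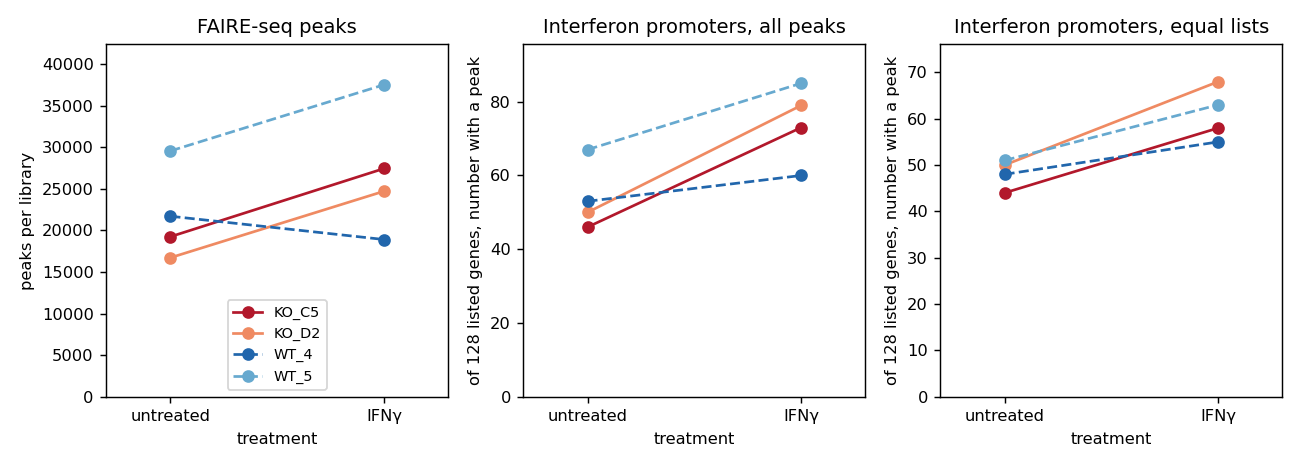
Peaks per library (left), listed interferon promoters with a peak (centre) and the same with all lists cut to equal length (right), before and after IFNγ, with 1 point per library and 1 line per clone. Both KO clones rise in each panel, to 58 and 68 promoters at equal lengths, while WT_4 falls in peaks and rises in listed promoters.

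At equal list lengths 319 of 17236 promoters of all genes were gained (1.85%) and 438 were lost (2.54%). Of 71 listed genes with a KO promoter peak in the cut lists, 6 were gained (BATF2, HLA-B, APOL3, CX3CL1, ISG15 and LGALS3BP) and 1 was lost, IFNGR2. The other 11 gained promoters, CIITA, BST2 and APOL2 among them, had peaks too weak for the cut lists in at least 1 treated clone. List length thus moved the count for listed genes from 17 to 6 and that for all genes from 851 to 319.

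The antiviral effectors held most of the gained promoters, 11 of 32 with a KO peak. The values are summit pileups, the number of fragments over the summit of the strongest promoter peak. A library without a peak has no value, and the weakest peaks called in any list had 5 or 6 fragments. ISG15, the ubiquitin-like modifier, had no peak in untreated KO_C5 or KO_D2 and 30 and 61 fragments after IFNγ. Its WT promoter had no peak in untreated WT_4, 21 fragments in untreated WT_5, and 15 and 76 after IFNγ. All 4 treated libraries thus carried an ISG15 peak and 1 of the 4 untreated libraries did. In such tallies, here and below, the KO libraries are set by the rule that chose the gene. Only the WT libraries were free to differ. With promoters of 1 kb either side ISG15 was gained in 1 clone only.

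BST2 (tetherin), which holds budding virus particles at the cell surface, went from no peak to 14 and 20 fragments in the KO clones, with 7 fragments in treated WT_5 as its only WT peak. OAS2, which makes the 2-5A signal for RNA decay, went from no peak to 17 and 37, with 15 in treated WT_5 only. SP110, a nuclear body protein, had 23 and 26 in the treated KO clones and 48 in treated WT_5. For these genes, and for TRIM21, the cytosolic antibody receptor (31 and 24 in KO, 19 in treated WT_5), no untreated library of either genotype had a peak.

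SP100, another nuclear body protein, had a peak in all 4 treated libraries (31 and 36 in KO, 13 and 35 in WT) and in no untreated one. MX1, a GTPase that blocks viral nucleocapsids, had 14 and 25 fragments in the treated KO clones, but also 11 in untreated WT_5 and 15 in treated WT_5. LGALS3BP, a secreted glycoprotein, had 35 and 29, with 22 in untreated WT_5 and 12 and 60 in treated WT. IFI16, a DNA sensor, had 11 and 26, and its only WT peak was in untreated WT_5 (14), the reverse of the order in KO. No single region at an IFI16 start met the rule for a gained region, so its call rests on the promoter windows alone.

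The RNA sensors IFIH1 (MDA5) and DDX60 were gained in KO but open in every WT library. IFIH1 had 18 and 34 fragments in the treated KO clones, 11 and 17 in untreated WT, and 8 and 28 in treated WT. DDX60 had 12 and 30 in the treated KO clones, 22 and 15 in untreated WT, and 11 and 33 in treated WT. For these genes the untreated KO clones, which have no peak by the rule, were the exception among 8 libraries.

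The IRF, MHC class I, MHC class II, chemokine and APOL groups gave 1 or 2 gained promoters each. BATF2, a bZIP factor of IFNγ-treated cells, had 57 and 48 fragments in the treated KO clones, 11 in untreated WT_5 and 38 in treated WT_5. HLA-B, a classical MHC class I heavy chain, had 50 and 33 in the treated KO clones, 42 in untreated and 68 in treated WT_5, and none in WT_4. The HLA-B peaks of the treated KO clones lay at chr6:31366840-31367194. Any annotated start counts as a promoter here, and whether the main class I transcript starts at this site was not examined. CX3CL1 (fractalkine), a membrane-bound chemokine, had 64 and 59 in the treated KO clones, 19 and 28 in untreated WT, and 25 and 58 in treated WT. All 3 were gained at equal list lengths as well.

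The neighbouring APOL genes on chromosome 22 encode apolipoprotein L proteins, some of which act on intracellular microbes. APOL3 had 33 and 25 fragments in the treated KO clones and 24 in treated WT_5 alone, and was gained at equal lengths. APOL2 had 40 and 28 in the treated KO clones, 25 in untreated and 43 in treated WT_5. Untreated KO and both WT_4 libraries had no peak at either promoter.

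**Figure D2:**
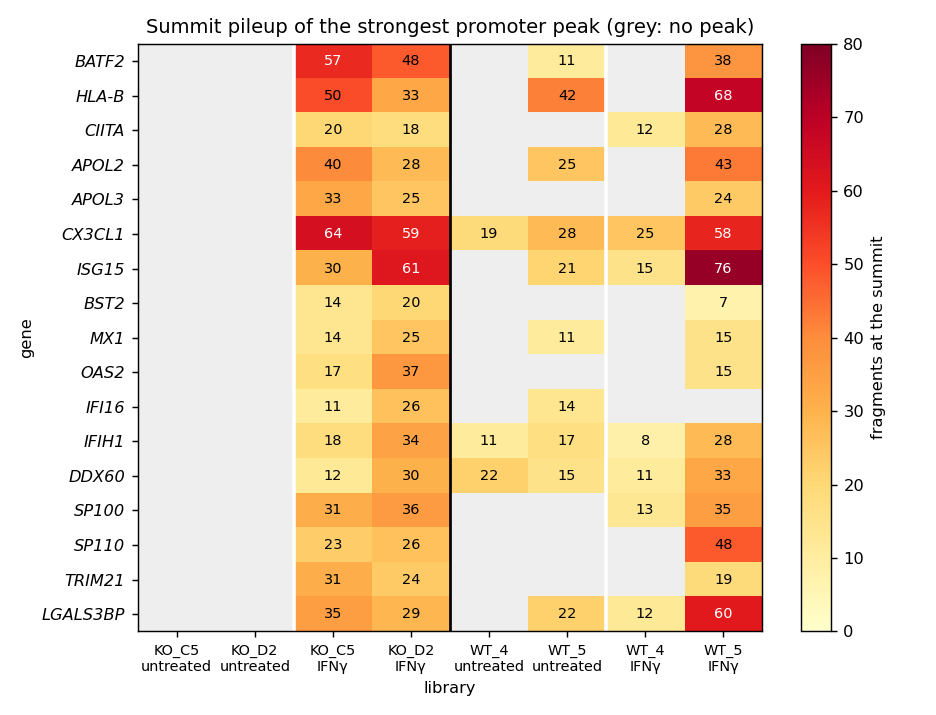
Summit pileup in fragments (colour and number) of the strongest promoter peak for the 17 listed genes with a gained promoter (vertical axis) in each of the 8 libraries (horizontal axis), grey where no peak was listed. The untreated KO columns are empty by the rule that chose the genes, and treated WT_5 has a peak at all of them except IFI16.

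CIITA, the master regulator of MHC class II genes, has several alternative promoters, and the study followed pIII, which ZBTB48 binds. The gained region, chr16:10878680-10879099, covers the start at 10878969, known as pIV, a promoter that IFNγ can induce in non-immune cells, as it can pIII. It had 13 and 18 fragments in the treated KO clones, 12 and 28 in treated WT, and no peak in any untreated library. At the 7 starts from 10877198 to 10877331, in the area of pIII, only treated WT_5 had a peak (17). At the starts 10866222 and 10866260 no library had one. A peak near 2 starts farther in, 10922167 and 10922925, was listed in treated KO_C5 (20) and treated WT_5 (16), and it is the KO_C5 value in the plot of promoter pileups. Of the other MHC class II genes 9 had no KO promoter peak, so KO_IFNγ peaks at CIITA stood beside mostly unlisted class II promoters.

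The start of the pathway was already open. All 12 genes of the receptor and JAK-STAT list had a promoter peak in each of the 8 libraries, and 0 were gained or lost with all peaks. Of the 8 guanylate-binding protein genes, which attack vacuoles of microbes, 7 had no KO promoter peak and 0 were gained. Of 14 chemokine and checkpoint genes 9 had no KO promoter peak. A missing peak says that the site was not detectable at this depth, not that it was closed.

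The untreated WT libraries place these promoters against clone differences. Of the 851 gained promoters of all genes, 114 (0.612% of those tested, 13.4% of those gained) had no peak in either untreated WT library. Of the 17 listed ones 7 had none (41.2%), namely CIITA, SP100, APOL3, BST2, OAS2, SP110 and TRIM21. These shares are descriptions, since the lists were chosen with results of these data known.

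Most regions gained in both KO clones were open in one untreated WT clone. Of the 3516 gained regions, 74.9% had a peak in untreated WT_5 and 14.6% in untreated WT_4, while over all KO regions the shares were 69.1% and 49.0%. After IFNγ the shares were 91.0% in WT_5 and 16.8% in WT_4. Among the 925 regions gained in both settings, untreated WT_5 covered 91.8% and untreated WT_4 again 14.6%. The most frequent pattern was a peak in both WT_5 libraries and neither WT_4 library, in 1872 regions (53.2%).

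With all 8 lists at equal length, 67.6% of the 957 gained regions were open in untreated WT_5 and 13.0% in untreated WT_4. The 702 regions lost at equal lengths lay the other way, with 23.5% in WT_5 and 81.1% in WT_4. For the 83 regions lost with all peaks the gap was smaller, 44.6% and 59.0%. The part of IFNγ and of differences between library preparations in this was not tested. Only 802 gained regions (22.8%) had no untreated WT peak, 75.3% of them had one in treated WT_5 and 10.2% in treated WT_4. Of the 925 regions gained in both settings, 68 (7.35%) had no untreated WT peak.

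**Figure D3:**
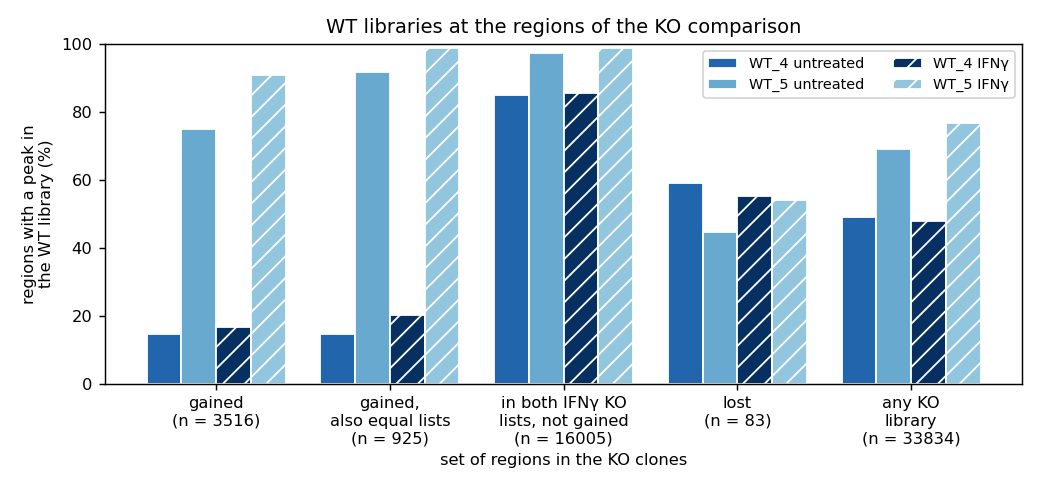
Share of regions (%) with a peak in each of the 4 WT libraries, for sets of regions defined in the KO clones; 1 bar per WT library, hatched after IFNγ. In the gained sets the WT_5 bars reach 74.9% to 98.9% and the WT_4 bars 14.6% to 20.2%, a gap that is smaller in the other sets.

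Gained regions were weaker, narrower and farther from a TSS than all KO regions, a set that includes them. The rule leaves out every region with an untreated KO peak, which by itself favours weak sites. The differences are therefore descriptions of the selected set. The median summit pileup of gained regions was 27 fragments in KO_C5 and 24 in KO_D2 after IFNγ. Over all KO regions it was 40 and 38, and at the 12363 regions with a peak in all 4 KO libraries 89 and 70. The median width of gained regions was 385 bp, against 476 bp over all KO regions. Within 1 kb of a TSS lay 34.2% of gained regions, 51.1% of all KO regions and 86.2% of those in all 4 libraries. The median distance to a TSS was 3433 bp for gained and 838 bp for all KO regions.

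Of the 10 strongest gained regions in both settings, TGIF1 lay at a start and the others in introns or between genes. The highest by within-list percentile of −log10 p was in an intron of TGM2, the tissue transglutaminase (chr20:38152172-38153255). It had 99 and 58 fragments in the treated KO clones, 18 in untreated WT_5, 80 in treated WT_5 and no peak in WT_4 or untreated KO. Next came an intron of BMP7, a bone morphogenetic protein (chr20:57195424-57195783), with 106 and 84 in the treated KO clones, 32 in treated WT_5, and no other peak in any library. TGIF1, a homeobox repressor of TGFβ signalling, had a gained region over its own start (chr18:3451402-3452682), with 104 and 88 in the treated KO clones, 32 in untreated WT_5, and 26 and 63 in treated WT. The remaining 7 of the 10 strongest, near PTGIS, MPRIP, CRACDL and the genes ENSG00000235862, ENSG00000232001, ENSG00000289609 and ENSG00000287429, had 76 to 107 fragments in treated KO_C5 and 42 to 63 in treated KO_D2, and all 7 had a peak in both WT_5 libraries and in neither WT_4 library.

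Among gained regions with no untreated WT peak, the strongest after BMP7 covered a start of TMEM229B (chr14:67488136-67488928) and held an ISRE core. It had 82 and 67 fragments in the treated KO clones and 15 and 87 in treated WT. All 4 treated libraries and no untreated one carried it, but under this choice only the treated WT libraries were free to differ. An intronic region at ENSG00000236231 (chr2:176553633-176553978), with an ISRE core too, had 53 and 46 in the treated KO clones and 50 in treated WT_5. A region in an intron of ETV6, a transcriptional repressor, had 51 and 37 in KO and 30 in treated WT_5.

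The sequences of the matches in TMEM229B, ENSG00000236231 and TGM2 are given because these regions share the letters of the listed promoters.
TMEM229B: ggtctttggtTTCTGTTTCtgttttagtt
ENSG00000236231: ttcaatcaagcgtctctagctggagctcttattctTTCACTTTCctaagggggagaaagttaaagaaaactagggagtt
TGM2: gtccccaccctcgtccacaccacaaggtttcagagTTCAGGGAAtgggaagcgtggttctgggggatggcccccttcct
The first lies at chr14:67488718-67488746 and the second at chr2:176553699-176553777, 31 and 83 bp from the summit, with an ISRE core in capitals. The third, at chr20:38152872-38152950 and 123 bp from the summit, has a GAS in capitals. All 3 are printed on the - strand.

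The call for the promoters named next depends on the window, as an untreated KO clone had a peak within 1 kb of a start of every one except CX3CL1. With promoters of 1 kb either side, NOTCH4, NAGS, ENSG00000263756, ENSG00000260805, ENSG00000276407 and ENSG00000291338 were gained in 0 clones and SHLD3, TRAPPC13 and HOXC6 in 1. With 500 bp, the promoter gained at the highest percentile was that of NOTCH4, a Notch receptor of the vascular lineage in the MHC region of chromosome 6. It had 257 and 190 fragments in the treated KO clones and 231 in treated WT_5, but 11 and 28 in untreated WT and 18 in treated WT_4. The lncRNA ENSG00000276407 on chromosome 3 had 93 and 86 in the treated KO clones, 89 in treated WT_5, and no peak elsewhere. The promoter shared by SHLD3 and TRAPPC13 had 78 and 73, with 70 in untreated WT_5. HOXC6, a homeobox factor, had 68 and 51 with a peak in all 4 WT libraries (11 and 22 untreated, 9 and 45 treated). NAGS, which makes the activator of the urea cycle, had 67 and 57, with 28 to 64 in WT. Of the other promoters named by the rule, those of ENSG00000263756 and ENSG00000260805 had 129 to 187 fragments in the treated KO clones and 142 to 188 in at least 1 untreated WT library, ENSG00000291338 had 57 and 45 with 10 in untreated WT_5, and CX3CL1 is given above.

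Regions near listed genes, but with no peak in untreated WT, were read next. Of the 802 such gained regions, 18 lay within 50 kb of the TSS of a listed gene (2.24%), against 364 of all 33834 KO regions (1.08%). The 18 include the gained promoters of CIITA, SP100, APOL3, BST2, OAS2, SP110 and TRIM21 given above, so this share is not a separate result. Over 1 kb from any TSS the shares were 1.21% (7 of 578) and 0.749%. Most were weak. RNF213, a large ubiquitin ligase against microbes, had 43 and 36 fragments at its intronic site, shown above, and 30 in treated WT_5, and this was gained at equal lengths.

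Of the regions near SOCS1, the feedback inhibitor of JAK kinases, the one at chr16:11240632-11241212 had 41 and 28 in the treated KO clones and 38 in treated WT_5. Its GAS lies 69 bp from the summit at chr16:11240820-11240898 (- strand), and it is shown as the match near an inhibitor of the pathway.
SOCS1: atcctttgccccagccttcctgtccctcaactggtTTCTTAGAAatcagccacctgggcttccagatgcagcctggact
Another start of PSMB10, an immunoproteasome subunit, had 18 and 21 in the treated KO clones and 16 in treated WT_5, and an IRF8 site 9906 bp from its TSS had 12 and 10, with 11 in treated WT_4. The 2 GBP5 regions had 8 to 17 fragments in the treated KO clones and 6 to 13 in treated WT, with a peak in all 4 treated libraries.

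Motif matches were counted in 301 bp around each summit, on both strands. Of the 17 gained promoter regions of listed genes 11 held an ISRE core (64.7%), as did 13 of 38 listed regions in all 4 KO libraries (34.2%) and 968 of 17278 promoter regions with a KO peak (5.60%). These 17 regions belong to 16 genes, as APOL3 had 2 and IFI16 none. A GAS was in 2 of the 17 (11.8%), 6 of the 38 (15.8%) and 4.91% of all. Listed genes thus stood farther from other promoters in the ISRE core than in the GAS.

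Over all gained regions the ISRE core was in 9.98%, against 8.15% of all KO regions. At any distance, the ISRE core was in 15.2% of gained regions with no untreated WT peak, and in 8.43% of those open in untreated WT_5. Far from a TSS, the AP-1 motif TGANTCA, of the FOS and JUN factors, was in 39.5% of gained and 36.5% of all KO regions, and the core CCANNAGGG of the insulator factor CTCF in 13.7% and 9.33%. Median GC content was 57.1% in gained regions, 60.8% in all KO regions and 69.1% in regions of all 4 KO libraries. Over 1 kb from a TSS it was 56.5% in gained and 52.5% in all KO regions. The sets thus differ in base composition, and the direction depends on the place. None of these shares carries a test.

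**Figure D4:**
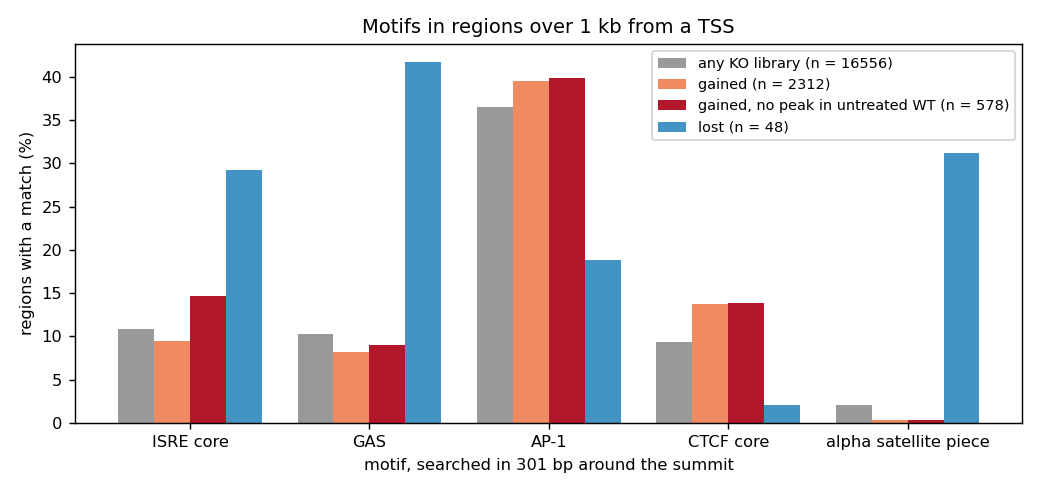
Share of regions over 1 kb from a TSS (%) with each motif in 301 bp around the summit, for 4 sets of KO regions. The ISRE core is at 14.7% in gained regions with no untreated WT peak, 9.47% in all gained regions and 10.8% in all KO regions. The lost set of 48 regions stands apart at the GAS, ISRE core and alpha satellite piece.

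The 83 lost regions were weak and in part outside genes. Their median within-list percentile was 12.7 in untreated KO_C5 and 5.94 in untreated KO_D2. The 5 strongest in both settings lay at CRYBG2 (29 and 28 fragments in untreated KO_C5 and KO_D2), APC2 (29 and 16), PIANP (36 and 20), far from any gene on chromosome 13 (17 and 18) and near NOX3 (33 and 9). CRYBG2 and PIANP had a peak in all 4 WT libraries, and the others in 2 or 3.

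Of the lost regions 21 (25.3%) lay over 200 kb from a TSS, against 1.66% of all KO regions, and 8 of these 21 were on chromosome 18. The letters TTGAAACAC, a piece of the alpha satellite repeat of centromeres, were in 15 of the 21, and 17 held a GAS. Over 1 kb from a TSS the piece was in 31.2% of lost, 2.09% of all KO and 0.346% of gained regions. Reads of such repeats have many near-identical copies, so these losses are uncertain.
ENSG00000279924: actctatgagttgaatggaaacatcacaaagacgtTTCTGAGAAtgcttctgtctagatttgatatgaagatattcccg
This stretch of the lost chromosome 13 region (chr13:16370169-16370247, - strand, GAS letters in capitals) is shown because it is repeat sequence with the letters of a GAS. The gene named is the nearest, 1808192 bp away.

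At regions open in all 4 KO libraries, the height of the peaks was compared. The deposited fold enrichment, a ratio of the summit to its local background, was tested on the log2 scale by limma after quantile normalisation with the clone as a block. Of 12363 regions 0 rose (0%) and 0 fell (0%) at an adjusted p under 0.05, and the lowest adjusted p was 0.237. Unadjusted p-values under 0.05 were found for 1317 higher (10.7%) and 776 lower (6.28%) regions. With 1 residual degree of freedom among 4 libraries, sizes are given as a description.

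Among the 38 listed promoter regions 22 had higher and 16 lower fold enrichment, with a median log2 difference of 0.07 against -0.09 over all 12363. Unadjusted p-values under 0.05 were found for 8 higher and 2 lower. TRIM69, an antiviral ubiquitin ligase, had fold enrichments of 6.36 and 8.65 untreated and 23.3 and 23.7 treated in KO_C5 and KO_D2, a log2 difference of 1.52 ± 0.22 (SE, limma adjusted p = 0.237). IL15RA, which presents IL-15 to lymphocytes, had 5.16 and 5.61 untreated and 17.7 and 14.7 treated (1.44 ± 0.23, limma adjusted p = 0.237). The treated values of both genes lay above both untreated values, without a pass at the threshold.

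RSAD2 (viperin), ISG20 (an RNA exonuclease) and PSMB10 had log2 differences of 1.22, 1.18 and 1.09, STAT3 had 0.96 and CD274 (PD-L1) 0.85. IFNGR2 had -0.91 and JAK2 -0.68. IRF1 and the TAP1 promoter shared with PSMB9, although classical IFNγ targets, had 0.09 and -0.41. No listed gene had a limma adjusted p under 0.05.

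By the rule that names regions, the rises with the largest size were at FAM156A (1.94 ± 0.40), CSF1 (1.90 ± 0.28), ENSG00000276317, LINC02596, CREB3L2, ENSG00000262884, SMNDC1 and LINC01270, the last 6 with log2 differences of 1.72 to 1.85. CSF1, the macrophage growth factor, had fold enrichments of 3.72 and 6.91 untreated and 23.2 and 18.3 treated. In WT it had 11.6 and 10.5 untreated and 16.1 and 35.7 treated. Falls were smaller, at -1.25 to -1.33, near MIR1208, ROCK1, KCNH1, GUSBP5, ANKEF1, B3GLCT, ENSG00000215512 and POU6F1, and those named for ROCK1 and ENSG00000215512 lay 2067757 and 510856 bp from a TSS on chromosome 18. The limma adjusted p was 0.237 for all of these regions except SMNDC1, at 0.242.

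Whether the KO response differed from that of WT was tested as an interaction over 11551 regions open in all 8 libraries. The difference passed in 0 regions (0%, lowest limma adjusted p = 0.621), with unadjusted p-values under 0.05 in 504 higher and 412 lower regions. Without KO_C5 it passed in 14 regions and without KO_D2 in 100, where the lone KO clone is assumed to vary like the WT clones. The KO and WT responses were thus not separated at this size, and nothing above can be called particular to the KO clones.

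The within-list rank of each region gave the same material without the deposited scale. Rank is the percentile of −log10 p within a list. With lists of equal length, 2822 of 10911 regions rose in percentile in both KO clones (25.9%) and 4961 fell in both (45.5%). Over 12716 gene promoters the shares were 26.1% and 45.4%. Of the 38 listed genes with a promoter peak in all 4 cut lists, 16 rose in both clones and 9 fell.

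The largest joint rise among listed genes was at TRIM69, by 48.3 percentile points in KO_C5 and 43.6 in KO_D2. RIGI, an RNA sensor, rose by 30.0 and 30.2, and PSMB10 by 46.5 and 19.2. Others were uneven, as RSAD2 rose by 12.2 in KO_C5 and 56.4 in KO_D2. HLA-E, a class I molecule read by NK cells, had -18.8 in KO_C5 and 53.1 in KO_D2, opposite signs. Receptor and JAK-STAT genes had 3 that rose and 5 that fell of 11, while antiviral effectors had 7 and 2 of 12.

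**Figure D5:**
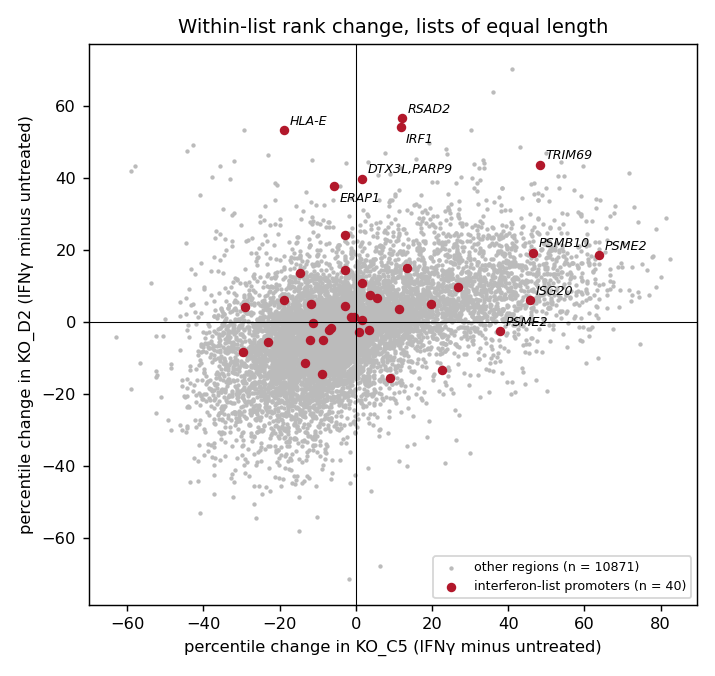
Change in within-list percentile of −log10 p with IFNγ (percentile points, lists of equal length) in KO_C5 (horizontal) and KO_D2 (vertical), 1 point per region, with 40 listed promoter regions in red among 10871 others. Of the red points 15 lie above 0 in both clones and 9 below 0 in both, and TRIM69 is far from 0 on both axes while HLA-E is on opposite sides.

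Across the 11551 regions of all 8 full lists, the KO_C5 and KO_D2 changes had a Pearson correlation of 0.378. The KO_C5 change had 0.642 with the difference between untreated WT_5 and WT_4, libraries it does not share, and the KO_D2 change 0.303. These points share libraries, depth and base composition within a clone and are not independent. With all 8 lists at equal length (10016 regions) the correlation was 0.483 between the KO clones, and with the WT clone difference it was 0.696 for KO_C5 and 0.395 for KO_D2. The correlation of KO_C5 was thus higher with the WT clone difference than with KO_D2 in both settings, and the reason was not tested.

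The bone origin of the line was checked on promoters of 12 osteoblast genes, of which 4 had a peak in all 4 KO libraries, 3 in some and 5 in none. RUNX2, SP7 and MSX2 had a peak in all 8 libraries, while COL1A2, SPP1 and DLX5 had none in any. Of 9 lymphoid and myeloid genes, the defining markers PTPRC, CD3E, CD3D, MS4A1, CD79A, LYZ and CD14 had no peak in any library. CSF1R had one in treated KO_C5 and in both WT_5 libraries. Of 6 epithelial genes, EPCAM, KRT8 and KRT18 had a peak in all 8 libraries and CDH1, KRT5 and KRT14 in none. ZBTB48 itself had a promoter peak in all 8 libraries, which cannot check the knockout. MTFP1, a gene that depends on ZBTB48, had a promoter peak in 0 of 4 KO and 3 of 4 WT libraries.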

How the data were processed

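FAIRE-seq peak lists of 8 U2OS libraries were used, 1 list per library. The authors trimmed adapters with Trimmomatic, aligned reads to GRCh38 with Bowtie2 2.2.5 and filtered them on mapping quality with SAMtools 1.14. Peaks were called by the authors in MACS2 2.2.7.1. Use of input DNA as control and treatment of duplicates are not given in the sources used here. The deposited ratio is the fold enrichment of the summit over local background. For the same summit the deposited lists give −log10 p, −log10 q (at least 1.30) and a score, a multiple of −log10 q that was not used. These are the lists of single libraries, without the replicate filter named in the study's methods.

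The fragments at each summit and its background were found by inverting the MACS2 Poisson p-value together with the fold enrichment, with a whole number of fragments for 100% of peaks and a largest relative error of 7.1e-06. Read totals were not analysed here, so depth is known only from the lowest local background, 0.621 to 1.08 fragments, and no counting interval was given. Regions were merged by at least 1 bp. TSS, exons and introns came from GENCODE 44. Sequences came from the GRCh38 genome. Fold enrichment was tested with limma 3.58.1 in R 4.3.3 on log2 values with no pseudocount and Benjamini-Hochberg adjustment at 0.05, quantile normalised, with 1 value per region and library. The region, pileup and limma code was tested on simulated data.

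The labels pair the untreated and the treated library of each clone. The Jaccard index of regions was 0.521 within KO_C5 and 0.606 within KO_D2, and 0.495 and 0.565 across clones. WT and KO clones share only a number. Replicate 1 is WT_4 or KO_C5 and replicate 2 WT_5 or KO_D2. Whether samples of a group came from separate cultures beyond being separate clones is not stated. In the paired fits and the sign-flip tests, p-values measure how the IFNγ difference within a clone varied between these clones. In limma this spread is moderated across regions.

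Named were the 10 gained and 5 lost regions strongest by mean percentile of −log10 p among those found with all peaks and with equal lists, the 10 gained promoters of highest percentile, the 8 largest rises and 8 largest falls in fold enrichment (by unadjusted p and size, as none passed), every listed interferon gene with a gained or lost promoter, and CIITA with the markers ISG15, HLA-B, BST2, APOL3 and APOL2. Other genes, among them the strongest gained regions with no untreated WT peak, regions near listed genes and genes named for rank or fold enrichment, were chosen after their values were seen. The members and lists were chosen with earlier results of these data known. The alternatives tried were minimums for −log10 q (3) and fold enrichment (4), a minimum shared fraction of 0.5 in place of 1 bp, summit windows reaching 150 bp each way, equal list lengths, promoters of 1 kb, other scalings, no clone block and the omission of each replicate. The untreated WT filter, and the rank changes and correlations at equal lengths, were added after the data were seen.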

Additional observations from a re-analysis of the deposited data

How the results depend on the processing

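Gained regions numbered 3516 with all peaks, 957 with KO lists cut to the shortest, 1193 with each clone's lists cut to the shorter, 802 with no untreated WT peak and 8805 to 10987 when 1 clone was left out. Lost regions numbered 83, and 702, 681 and 26 in the same order, 202 with summit windows and 990 to 3207 when 1 clone was left out. Gained promoters numbered 851, then 319 with cut lists, 114 with no untreated WT peak and 1844 to 2735 with 1 clone left out. Lost promoters numbered 34, then 438 and 356 to 418. The interaction gave 14 to 100 regions when a KO clone was left out, and 0 when a WT clone was. The share of regions higher in rank in both clones was 57.4% with all peaks and 25.9% at equal lengths. The shorter lists and the rule on 1 clone hold fewer conditions or fewer peaks by construction, while the cause of other moves was not tested. The limma calls were 0 in every alternative, with a lowest adjusted p of 0.054 under median centring. With no replicate block, in place of the paired fit, they were 0 too, with a lowest adjusted p of 0.543. The filter on mean fold enrichment of at least 4 removed no region. Of the gained or lost calls of named regions and promoters, 241 stood under an alternative, those with 1 clone left out by construction, and 21 did not (11 with cut lists, 10 with wider promoters). The fold enrichment differences named had no call, and kept their sign in all 108 values. Each genotype has 2 clones, no test on presence can reach 0.05, and a site under the detection limit of a shallower untreated library appears as gained.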

Other observations

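Genes outside the interferon lists moved in rank as well. The constitutive proteasome, which degrades proteins in every cell, had a KO promoter peak at all 14 listed genes, with 10 in all 4 KO libraries and 2 gained. PSMB4 had 25 and 24 fragments in treated KO_C5 and KO_D2, and PSMB6 had 36 and 31. Both had no peak in untreated KO or in WT_4, while WT_5 had 14 and 17 (PSMB4) and 21 and 28 (PSMB6), untreated and treated. At equal list lengths 6 of 9 constitutive proteasome genes rose in rank in both KO clones and 1 fell, with median changes of 37.9 and 9.75 percentile points in KO_C5 and KO_D2. The 38 interferon genes had medians of 0.161 and 5.43, so the list meant as a control for the immunoproteasome stood higher than the interferon lists.

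AP-1 and stress genes, early responders to growth factors and stress, had 0 of 16 promoters gained, and 7 of 14 rose in rank in both clones and 4 fell. ALPL, an alkaline phosphatase of bone, was the gained promoter of the osteoblast list (1 of 7), with 37 and 14 fragments in the treated KO clones and 16 and 23 in WT_5. By chromosome, the gained share of KO regions ran from 5.57% on chromosome 18 to 13.4% on chromosome 22, which holds the APOL genes, and chromosome 18 also had 8 of the lost regions.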
